A study of Mus musculus with 10 samples.

Results

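The RNA described here is upstream antisense RNA at long noncoding RNA (lncRNA) genes, measured by RNA-seq in testes of mice at postnatal day 4 (P4). A promoter upstream transcript (PROMPT) was counted over the 3 kb that end 1 base before a gene's start, on the strand opposite to the gene. Members were the rows of the deposited PROMPT table whose downstream gene has the GENCODE biotype lncRNA, matched by Ensembl gene ID without its version, which gave 4383 of 30166 rows. Each library came from the pooled testes of 1 mouse, and 5 libraries were from control siblings (labelled *Dis3* WT) and 5 from *Dis3* cKO mice. Both groups are labelled with the strain B6D2F1 inbred. Per the study's methods, *Dis3* cKO mice are *Dis3* F/-; *Ddx4*-Cre, so that *Dis3* is floxed on one allele and already deleted on the other, and the Cre recombinase is driven in germ cells from before birth. Somatic cells of these testes thus keep the floxed allele undeleted but also carry the deleted allele, and each library mixes germ and somatic cells.

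PROMPTs arise because many promoters are transcribed in both directions. The RNA made away from the gene is capped, short-lived, and normally degraded in the nucleus by the RNA exosome, for which DIS3 is a catalytic ribonuclease. The promoters of lncRNA genes fire in both directions as those of mRNA genes do, and the lncRNA itself can be unstable or, as for *Malat1*, abundant and stable.

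Promoter sequences are shown for 6 members whose PROMPT was called higher in *Dis3* cKO and for 2 that had PROMPT counts in control and were not called, because the regions start from these promoters. They are RefSeq sequences on GRCm38.p6, from 250 bases before to 50 after the start of the lncRNA, read 5′ to 3′ on the lncRNA's strand, with every CG dinucleotide in capitals. Those called higher come first.
Malat1, chr19:5802623-5802922, minus strand, 10 CG: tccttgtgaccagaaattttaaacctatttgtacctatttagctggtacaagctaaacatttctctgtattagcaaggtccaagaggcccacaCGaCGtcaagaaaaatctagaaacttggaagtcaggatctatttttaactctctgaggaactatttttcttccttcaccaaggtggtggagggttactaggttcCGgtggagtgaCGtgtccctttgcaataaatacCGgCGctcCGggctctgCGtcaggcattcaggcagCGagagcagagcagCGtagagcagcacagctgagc
Mir22hg, chr11:75461289-75461588, plus strand, 12 CG: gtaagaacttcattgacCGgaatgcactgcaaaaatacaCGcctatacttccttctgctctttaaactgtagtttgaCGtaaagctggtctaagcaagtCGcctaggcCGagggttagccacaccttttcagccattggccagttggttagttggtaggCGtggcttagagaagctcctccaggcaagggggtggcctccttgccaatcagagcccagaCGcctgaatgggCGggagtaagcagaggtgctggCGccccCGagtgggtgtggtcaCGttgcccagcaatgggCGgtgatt
Snhg15, chr11:6528711-6529010, minus strand, 29 CG: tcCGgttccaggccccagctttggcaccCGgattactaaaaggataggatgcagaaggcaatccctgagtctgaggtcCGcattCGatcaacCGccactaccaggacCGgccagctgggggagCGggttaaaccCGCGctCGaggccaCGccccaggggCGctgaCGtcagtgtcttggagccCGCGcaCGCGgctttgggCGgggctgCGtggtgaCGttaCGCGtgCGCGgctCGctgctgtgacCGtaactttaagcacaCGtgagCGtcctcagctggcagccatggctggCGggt
Snhg5, chr9:88522848-88523147, minus strand, 36 CG: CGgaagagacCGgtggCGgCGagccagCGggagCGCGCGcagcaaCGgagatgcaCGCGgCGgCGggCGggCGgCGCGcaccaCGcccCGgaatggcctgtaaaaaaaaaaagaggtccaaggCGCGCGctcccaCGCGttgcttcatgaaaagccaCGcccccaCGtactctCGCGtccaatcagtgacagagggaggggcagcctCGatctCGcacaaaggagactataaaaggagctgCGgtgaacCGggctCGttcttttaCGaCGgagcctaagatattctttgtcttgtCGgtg
1700096K18Rik, chr5:25529768-25530067, plus strand, 33 CG: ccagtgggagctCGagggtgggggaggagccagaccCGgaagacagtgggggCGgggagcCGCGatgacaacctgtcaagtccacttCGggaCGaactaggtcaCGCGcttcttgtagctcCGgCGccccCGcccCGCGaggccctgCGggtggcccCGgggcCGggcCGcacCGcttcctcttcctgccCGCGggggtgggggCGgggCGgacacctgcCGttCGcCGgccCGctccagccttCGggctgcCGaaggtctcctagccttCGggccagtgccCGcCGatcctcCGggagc
Gm9530, chr1:155083215-155083514, minus strand, 43 CG: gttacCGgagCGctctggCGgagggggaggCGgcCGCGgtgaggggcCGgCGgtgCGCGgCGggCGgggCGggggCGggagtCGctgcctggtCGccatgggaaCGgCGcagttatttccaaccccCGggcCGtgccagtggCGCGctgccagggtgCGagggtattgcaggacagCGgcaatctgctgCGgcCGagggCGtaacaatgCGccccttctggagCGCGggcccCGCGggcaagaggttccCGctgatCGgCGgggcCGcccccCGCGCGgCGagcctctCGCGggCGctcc
Jpx, chrX:103493308-103493607, plus strand, 27 CG: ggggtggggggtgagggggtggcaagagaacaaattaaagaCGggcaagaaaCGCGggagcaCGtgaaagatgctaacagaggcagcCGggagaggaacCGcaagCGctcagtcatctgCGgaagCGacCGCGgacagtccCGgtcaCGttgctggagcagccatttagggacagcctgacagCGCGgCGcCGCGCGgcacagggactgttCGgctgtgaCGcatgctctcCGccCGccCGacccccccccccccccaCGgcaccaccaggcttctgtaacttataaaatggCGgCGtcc
Gm5493, chr17:22739690-22739989, plus strand, 14 CG: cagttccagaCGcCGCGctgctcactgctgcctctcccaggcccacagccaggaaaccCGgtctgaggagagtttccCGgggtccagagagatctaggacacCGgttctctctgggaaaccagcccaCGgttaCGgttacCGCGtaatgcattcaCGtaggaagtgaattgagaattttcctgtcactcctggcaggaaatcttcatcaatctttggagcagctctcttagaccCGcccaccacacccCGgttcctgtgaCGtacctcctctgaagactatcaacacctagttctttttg
In the *Snhg5*, *1700096K18Rik*, *Gm9530*, *Jpx* and *Gm5493* entries the RefSeq start lies 32, 5, 2, 2 and 5 bases from the first base after the counted region, and in the others it is that base. *Snhg15*, *Snhg5*, *1700096K18Rik* and *Gm9530* hold between 29 and 43 CG dinucleotides, and *Malat1* and *Mir22hg* hold 10 and 12. *Jpx*, which was not called, holds 27, so the number of CG did not separate these few promoters.

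The control libraries held 35391042 to 41104912 gene counts each and the *Dis3* cKO libraries 28538849 to 37739906, and 9594 to 21629 antisense counts per library fell in the members. *Dis3*, the gene deleted in germ cells, had normalized counts of 4122 to 5209 in control and 1351 to 1680 in *Dis3* cKO (log2 fold change -1.65, adjusted p = 2.38e-07 from edgeR). The counts cover all exons together, so deleted and kept exons are not told apart. As somatic cells carry the deleted allele too, the fall cannot be assigned to germ cells alone. Markers of germ cells and of Sertoli, Leydig, myoid, stromal, endothelial and macrophage cells were all detected. The 8 germ cell markers summed to 604 to 741 CPM in control and 403 to 551 in *Dis3* cKO, with *Dazl*, *Mael* and *Tex101* called lower. The others, *Gfra1*, *Sall4*, *Zbtb16*, *Ddx4* and *Dppa4*, had log2 fold changes of 0.05, -0.10, -0.25, -0.28 and -0.31 and did not pass (adjusted p from 0.202 to 0.879 in edgeR). In whole testes fewer cells of a type and less RNA per cell cannot be told apart. Of the markers of other cells only *Cyp17a1* (lower) and *Myh11* (higher) passed the test. The part of these differences in the PROMPT values was not tested. In both groups the libraries of replicates 1 to 3 cluster apart from those of replicates 4 and 5, which no label names, and *Dis3* cKO replicate 1 had the most PROMPT counts per gene count, so values by cluster are given beside the results.

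Upstream antisense RNA rose at 78 lncRNA genes in *Dis3* cKO and fell at 1. The test was edgeR's quasi-likelihood test over the 12345 PROMPT regions averaging 3 or more counts over the libraries, with an adjusted p under 0.05. Over all regions tested 13.3% were called higher and 0.0486% lower. Of the 4383 members 1449 entered the test, 2934 had too few counts for it, and 503 had no count in any library. The members called higher were thus 1.78% of all members and 5.38% of those tested, against 11.3% of all regions at protein-coding genes and 20.4% of those tested (1490 of 7315), and against 0.996% of tested regions upstream of processed pseudogenes (17 of 1706). The difference between these kinds of gene was not tested. In DESeq2 101 members were called higher (6.97% of those tested) and none lower, beside 1965 higher (15.9%) and 8 lower over all regions tested. At an unadjusted p under 0.05 edgeR gave 136 members higher and 3 lower, beside 2542 and 41 over all regions tested.

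The members called higher were rarely counted in control. Their control mean had a median of 4.81 normalized counts (counts divided by the library's scaled size relative to the average library) and was under 3 in 27 of them, and the median of their *Dis3* cKO mean was 23.5. Log2 fold changes ranged from 0.94 to 4.13 with a median of 2.47, and 52 were above 4-fold. Where a control mean is a few counts, the fitted fold change rests on those few counts. In 48 of the 78 every *Dis3* cKO library lay above every control library, beside 1116 of the 1637 called higher among all regions tested. Among tested regions, called or not, this held for 4.49% of the members and 10.8% of all regions. The 78 lie on 18 chromosomes. The fitted change was upward in replicates 1 to 3 for all 78 and in replicates 4 and 5 for 70 of the 72 that had a value there. The 78 were called higher from these same libraries, so this direction comes with the choice. In edgeR's interaction test of the fold between replicates 1 to 3 and replicates 4 and 5, 0 of the 1449 tested members passed an adjusted p under 0.05. An unadjusted p under 0.05 was reached by 147 of the 1449, more than the share of 0.05 that chance gives. Equal folds in the clusters are thus not shown. The 1 member called lower was *Gm47914*, named here after its value was seen. It had 10.3, 9.45, 0.848, 2.90 and 4.65 normalized counts in control replicates 1 to 5 and 1.20, 0, 0, 0 and 0 in *Dis3* cKO (adjusted p = 0.0402 from edgeR), so the groups overlapped, and DESeq2 did not call it.

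Over all 4383 members, upstream antisense counts did not separate the groups. In CPM, relative to the gene counts of the library, they summed to 462, 459, 338, 272 and 258 in control replicates 1 to 5 and to 758, 383, 366, 504 and 494 in *Dis3* cKO replicates 1 to 5. *Dis3* cKO replicate 1 was the highest, and *Dis3* cKO replicates 2 and 3 lay below control replicates 1 and 2. Regions upstream of processed pseudogenes, which are retrocopies that mostly have no promoter of their own, gave 594, 598, 421, 330 and 310 in control and 865, 361, 326, 585 and 572 in *Dis3* cKO. *Dis3* cKO replicate 1 was the highest here too, control replicates 1 and 2 lay above *Dis3* cKO replicates 4 and 5, and control replicate 3 above *Dis3* cKO replicates 2 and 3, whereas for the members *Dis3* cKO was the higher in both of these comparisons. The 78 members called higher summed to 13.7 to 21.2 in control and 53.7 to 104 in *Dis3* cKO, a separation that their selection gives, and the other 4305 members to 244 to 441 and 285 to 654. As a ratio to the pseudogene regions of the same library, all members together had 0.768 to 0.832 in control and 0.862 to 1.12 in *Dis3* cKO, and the members not called 0.733 to 0.787 and 0.756 to 0.873. These ranges did not overlap for all members and overlapped for those not called.

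**Figure D1:**
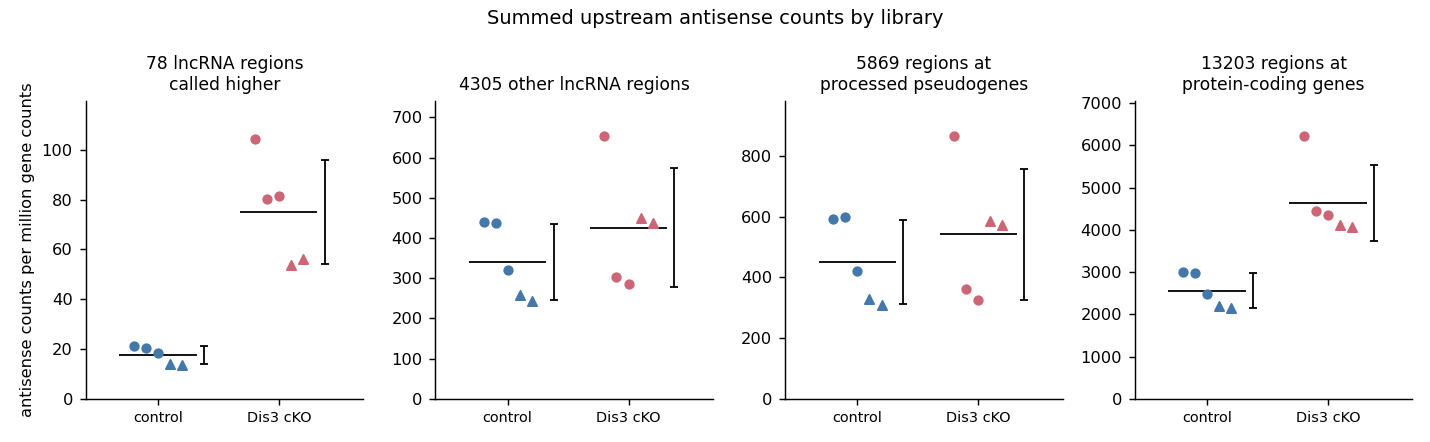
Antisense counts summed over 4 sets of regions, in CPM relative to the gene counts (vertical axis), in each library, where circles are replicates 1 to 3, triangles are replicates 4 and 5, horizontal lines are means of a group and bars its SD (n = 5). The 78 members called higher separate by selection, the other 4305 members and the pseudogene regions overlap between groups with *Dis3* cKO replicate 1 at the top, and the protein-coding regions lie at 2155 to 3000 in control and 4058 to 6213 in *Dis3* cKO.

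The median log2 fold change of the tested members was 0.44, beside 0.62 over all regions tested, 0.81 at protein-coding genes and 0.31 at processed pseudogenes. It was 0.26 without *Dis3* cKO replicate 1, where that of the pseudogene regions was 0.04. Within replicates 1 to 3 the members' median was 0.16 and that of the pseudogene regions -0.06, and within replicates 4 and 5 both were 1.05. When counts were scaled by the PROMPT table itself, which moves the median of all regions from 0.62 to 0.10, the members' median was -0.06, with 41 called higher and 3 lower. When scaled by the pseudogene regions, an alternative chosen after the data were seen, it was 0.18, with 54 higher and 1 lower. The level of the pseudogene regions moves with the members' median in each of these settings, and its part in the individual calls was not tested beyond the scalings given.

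**Figure D2:**
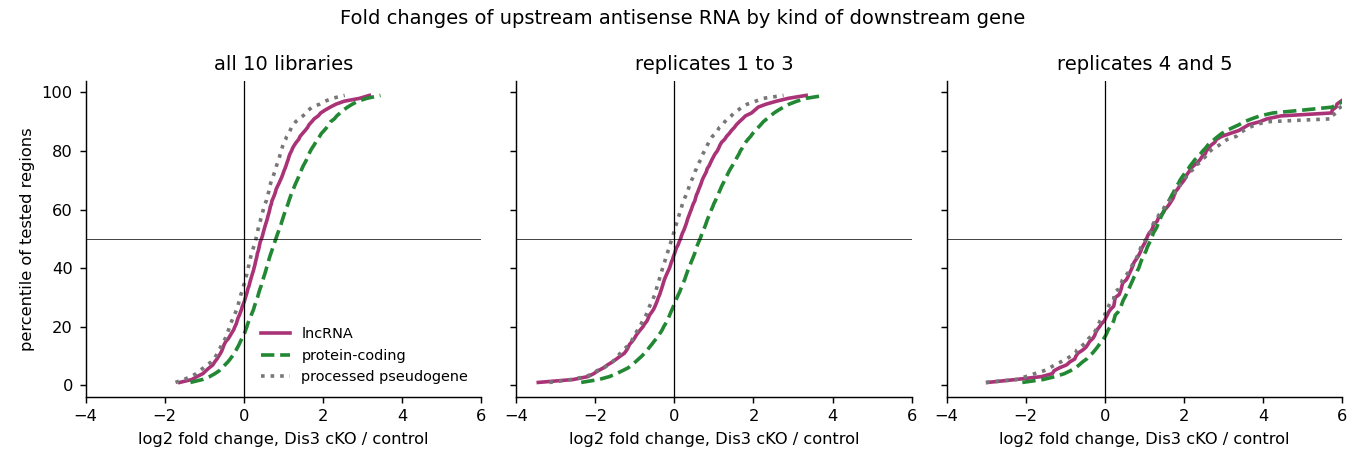
Log2 fold change, *Dis3* cKO over control (horizontal axis) at each percentile (vertical axis) of the tested regions at lncRNA genes, protein-coding genes and processed pseudogenes, over all libraries and within each cluster of libraries. The lncRNA curve lies between the other curves over all libraries (median 0.44) and within replicates 1 to 3 (0.16), and on the pseudogene curve within replicates 4 and 5 (1.05).

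*Malat1* is one of the most abundant nuclear lncRNAs, and its PROMPT lies at chr19:5802673-5805672 (GRCm38, positions as deposited throughout), where no gene of the gene table lies. The normalized PROMPT counts were 25.2, 19.8, 9.33, 20.3 and 6.51 in control replicates 1 to 5 and 122, 133, 100.3, 70.3 and 60.1 in *Dis3* cKO replicates 1 to 5. Every *Dis3* cKO library lay above every control library, with the lowest of them those of replicates 4 and 5. The group values were 16.2 ± 7.94 in control and 97.2 ± 31.7 in *Dis3* cKO (SD, n = 5 each) (log2 fold change 2.58, standard error 0.32, adjusted p = 1.63e-13 from edgeR). *Malat1* RNA itself had 101391 ± 3696 and 102263 ± 7918 normalized counts (SD, n = 5 each; log2 fold change 0.01, standard error 0.07, adjusted p = 0.943). The difference between groups thus lay in the PROMPT and was not detected in the lncRNA.

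Among host genes of microRNAs, *Mir22hg* and *Mir17hg* had raised PROMPTs. *Mir22hg* carries miR-22, and its PROMPT at chr11:75458539-75461538 had 25.2, 22.7, 24.6, 19.3 and 20.5 normalized counts in control and 107, 98.9, 94.7, 48.6 and 66.8 in *Dis3* cKO, in the order of replicates 1 to 5. The groups did not overlap, and the control libraries differed little among themselves (22.5 ± 2.54 in control and 83.2 ± 24.6 in *Dis3* cKO with SD over n = 5 each, log2 fold change 1.88, standard error 0.31, adjusted p = 1.04e-07 from edgeR). The coding gene *Tlcd2* starts 176 bases downstream of the *Mir22hg* start on the same strand. The region thus lies upstream of both starts, and its counts cannot be assigned to *Mir22hg* alone. *Mir17hg*, the host of the miR-17-92 cluster, had a PROMPT at chr14:115039879-115042878 with 5.60, 2.83, 0, 0 and 0 in control and 22.9, 23.997, 10.1, 9.73 and 14.5 in *Dis3* cKO. It was at 0 in 3 of the control libraries and present in every *Dis3* cKO library (log2 fold change 3.19, standard error 0.76, adjusted p = 5.18e-04 from edgeR). The PROMPTs of *Mir100hg* and *Mir99ahg* were counted at similar low levels in both groups (log2 fold changes -0.15 and -0.14, adjusted p = 0.980 and 0.981). Of 14 members named as miRNA hosts 7 were tested and 4 called higher, beside 5.38% of all tested members and 13.3% of all tested regions, the other two being *Mir142hg* and *Mir670hg* (log2 fold changes 2.24 and 2.72), named after their values were seen.

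Host genes of snoRNAs are spliced lncRNAs whose introns carry small nucleolar RNAs. The PROMPT of *Snhg15* at chr11:6528761-6531760 had 14.001, 12.3, 5.09, 0 and 2.79 normalized counts in control replicates 1 to 5 and 32.5, 52.8, 43.96, 18.4 and 20.04 in *Dis3* cKO replicates 1 to 5 (log2 fold change 2.28, standard error 0.47, adjusted p = 2.69e-05 from edgeR). That of *Snhg5* at chr9:88522930-88525929 had 5.60, 2.83, 0.848, 4.84 and 0 in control and 20.5, 17.3, 16.9, 20.5 and 15.6 in *Dis3* cKO (log2 fold change 2.65, standard error 0.67, adjusted p = 0.00116 from edgeR). Both were separate between the groups, and *Snhg5* was almost level across the *Dis3* cKO libraries, the clusters included. Of 7 tested members named *Snhg* these 2 were called higher, beside 5.38% of all tested members and 13.3% of all tested regions. The other 5 did not pass, among them *Snhg12*, which had 4.12 ± 3.56 in control and 13.8 ± 5.19 in *Dis3* cKO (SD, n = 5 each) (log2 fold change 1.72, adjusted p = 0.0894) and passed in DESeq2. For *Snhg6*, *Snhg20* and *Snhg17* the log2 fold changes were 1.49, 1.44 and 0.67, with adjusted p from 0.493 to 0.848 in edgeR. *Snhg16*, named after its value was seen, had 1.15 and was not called. *Epb41l4aos*, another snoRNA host, had 6.02 ± 3.87 in control and 18.4 ± 5.85 in *Dis3* cKO (SD, n = 5 each) (log2 fold change 1.58, standard error 0.58, adjusted p = 0.0478 from edgeR), and this call was lost in 12 of 20 alternatives. The regions of *Epb41l4aos*, *Snhg12* and *Snhg6* lie within 10 kb past the 3′ ends of *Epb41l4a*, *Trnau1ap* and *Mcmdc2* on the strand counted. That of *Snhg12* also overlaps another PROMPT region.

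The well-known lncRNAs were taken from a list of 60 genes, of which 31 are members and 21 were tested. The list was drawn up with earlier results of these data known and also holds less known genes such as *Gm14546*. Its counts are thus not independent of the data. Of those, 6 were called higher, which are *Malat1*, *Mir22hg*, *Mir17hg*, *Snhg15*, *Snhg5* and *Epb41l4aos*, and none lower, beside 5.38% higher among all tested members and 13.3% among all tested regions (median log2 fold change 0.80; DESeq2 called *Snhg12* as well and none lower). *Jpx*, a gene of the X inactivation center, had the most counted PROMPT of those that did not pass, with 32.7, 33.1, 23.7, 17.4 and 26.04 normalized counts in control replicates 1 to 5 and 45.8, 35.5, 38.3, 10.8 and 18.9 in *Dis3* cKO replicates 1 to 5. Replicates 4 and 5 were lower than the rest in *Dis3* cKO, and the groups overlapped (log2 fold change 0.17, standard error 0.38, adjusted p = 0.906 from edgeR). The PROMPT of *Ftx*, from the same center, had 5.48 ± 3.28 in control and 8.70 ± 4.76 in *Dis3* cKO (SD, n = 5 each) (log2 fold change 0.64, adjusted p = 0.778). *Firre*, *H19*, *Norad*, *Oip5os1*, *Pvt1* and *Lncenc1* had log2 fold changes of 1.34, 0.80, 0.44, 0.43, -0.60 and -0.14, with adjusted p from 0.463 to 0.981. With control means of 3.14 to 26.6 normalized counts, these values do not show that the PROMPTs were alike in the groups.

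The members named for the size of their rise were mostly lncRNA genes with little known function. They are the 10 with the largest folds of 19 called members that averaged 20 or more normalized counts over all libraries and whose groups were separate. All 10 had control means under 20 and reached that average through *Dis3* cKO, so their direction comes with the choice. *Gm28783* (chr1:17121747-17124746) had 3.73, 9.45, 5.09, 1.93 and 5.58 in control and 135, 96.9, 147, 32.4 and 50.1 in *Dis3* cKO replicates 1 to 5. Its *Dis3* cKO libraries of replicates 4 and 5 were below those of replicates 1 to 3 and above every control (5.16 ± 2.78 in control and 92.2 ± 50.4 in *Dis3* cKO with SD over n = 5 each, log2 fold change 4.12, standard error 0.38, adjusted p = 1.25e-24 from edgeR). *Gm13110* (chr4:154655319-154658318) had 3.73, 3.78, 4.24, 10.6 and 4.65 and 124, 90.2, 68.8, 57.3 and 38.98 (log2 fold change 3.79, standard error 0.39, adjusted p = 1.75e-19 from edgeR), with control replicate 4 above the other controls.

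*Gm34922* (chr19:43642750-43645749) was an exception to the order of the clusters, with 11.2, 1.89, 7.63, 0 and 9.30 normalized counts in control and 59.02, 77.8, 49.6, 116 and 87.97 in *Dis3* cKO, where replicates 4 and 5 were the highest (log2 fold change 3.66, standard error 0.38, adjusted p = 4.74e-19 from edgeR). *1700096K18Rik* (chr5:25527013-25530012) had 19.6, 19.8, 15.3, 1.93 and 7.44 in control and 158, 174, 124, 46.5 and 65.7 in *Dis3* cKO, the most counted PROMPT among these 10 in *Dis3* cKO (12.8 ± 7.89 in control and 114 ± 55.8 in *Dis3* cKO with SD over n = 5 each, log2 fold change 3.13, standard error 0.32, adjusted p = 1.17e-19 from edgeR). *Gm43020* (chr5:43355260-43358259) rose from 10.3 ± 3.80 to 88.7 ± 51.5 (log2 fold change 3.09, standard error 0.34, adjusted p = 1.36e-16 from edgeR). *Ppp1r36dn*, *Gm19426* and *4921531P14Rik* complete the 10 with *Malat1* and *Snhg15*, and their log2 fold changes were 3.23, 3.08 and 2.16. In every one of the 10 all *Dis3* cKO libraries were above all controls, as their choice required, and the fitted change was upward within each cluster of libraries.

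**Figure D3:**
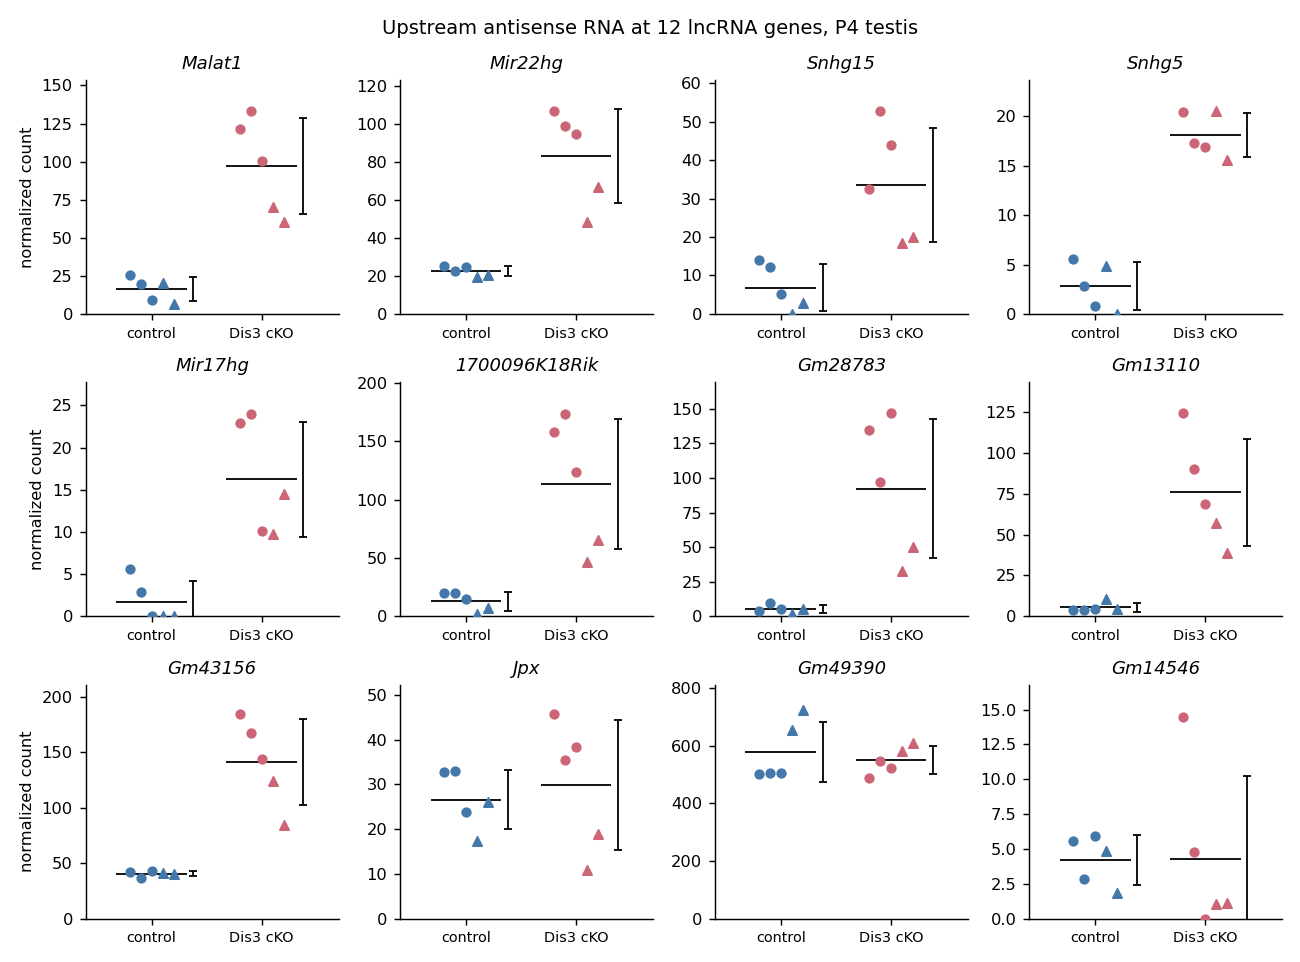
Normalized PROMPT counts (vertical axis, one scale per panel from 0) of 12 named members in each control and *Dis3* cKO library, drawn as circles (replicates 1 to 3) or triangles (replicates 4 and 5) with the mean of each group as a line and its SD (n = 5) as a bar. The groups are separate in the first 9 panels, as for *Malat1* at 6.51 to 25.2 and 60.1 to 133, and overlap for *Jpx*, *Gm49390* and *Gm14546*.

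The 5 members with the highest PROMPT counts in control did not pass the test. *Gm49390*, whose nearest coding gene is the transcription factor gene *Gata4*, had 501, 506, 506, 655 and 724 normalized counts in control replicates 1 to 5 and 489, 547, 523, 582 and 608 in *Dis3* cKO (log2 fold change -0.07, standard error 0.16, adjusted p = 0.903 from edgeR). In both groups replicates 4 and 5 were above replicates 1 to 3. *Gm48444*, near the inhibin and activin subunit gene *Inhba*, had 121 ± 45.5 in control and 125 ± 32.2 in *Dis3* cKO (SD, n = 5 each) (log2 fold change 0.05, adjusted p = 0.967), again with replicates 4 and 5 the highest in both groups. *Gm11205*, *Gm5493* and *Gm36423* had control means of 83.4, 74.7 and 60.3 and log2 fold changes of 0.14, -0.06 and -0.16 (adjusted p from 0.877 to 0.959 in edgeR). The regions of *Gm48444* and *Gm36423* lie within 10 kb past the 3′ end of *Inhba* and *Zmynd11* on the strand counted. None of the 5 was separate between the groups in either direction.

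The lncRNA genes themselves were tested with all genes. Of 4096 members whose lncRNA is in the gene table, 402 lncRNAs were well enough counted for edgeR's test over 20043 genes, in which 3.55% of all genes were called higher and 4.06% lower. Among the 402, 19 were higher (4.73%) and 6 lower (1.49%), and the median log2 fold change was 0.02 beside -0.04 over all genes. DESeq2 called 25 and 7. The number called higher was 11 when control replicate 1 was left out and 12 when *Dis3* cKO replicate 2 was, and without control replicates 1, 2, 4 or 5 or *Dis3* cKO replicates 3 or 5 the number called lower was 2 or 3.

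In 252 members both RNAs were tested. In 44 of them the PROMPT was called higher, and there the lncRNA was called higher in 5, lower in 3 and in neither direction in 36. Where the PROMPT was not called, the lncRNA was higher in 11, lower in 1 and in neither direction in 196. These shares were not compared by a test. In the 44 with a raised PROMPT the median log2 fold change was 2.50 for the PROMPT and 0.16 for the lncRNA. The PROMPT's was the larger in 42, which the choice of members with a raised PROMPT favors. The other 34 raised PROMPTs had an lncRNA too little counted for the test (26) or not in the gene table (8), so these medians do not cover them. Among the 26, the lncRNA of *Gm28783* had 1.83 ± 1.74 normalized counts in control and 27.0 ± 19.2 in *Dis3* cKO (SD, n = 5 each). That of *Gm43020* had 2.70 ± 5.53 and 6.94 ± 4.48. Conversely, of 16 raised lncRNAs with a tested PROMPT, 5 had a raised PROMPT, beside 44 of all 252. Across the 252 members the log2 fold changes of PROMPT and lncRNA had a Spearman's rho of 0.10 and a Pearson's r of 0.10, a description across genes from the same libraries.

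Relative to length, the lncRNA usually stayed the more counted of the pair. Among the 70 members called higher with an lncRNA in the gene table, the median lncRNA level was 9.19 normalized counts per kb of exon in control and 12.99 in *Dis3* cKO. The median PROMPT level was 1.56 per kb of region in control and 7.43 in *Dis3* cKO. The PROMPT exceeded its lncRNA in 10 of the 70 in control and 24 in *Dis3* cKO. The named members differed widely in this respect. The level of *Malat1* was 14645 per kb beside 32.4 for its PROMPT in *Dis3* cKO, and that of *1700096K18Rik* 71.3 beside 37.8.

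Both RNAs were called in 8 members, with the PROMPT higher in every one and the lncRNA higher in 5 and lower in 3. At *Gm43156*, PROMPT chr5:147742516-147745515, the PROMPT had 42.002, 36.9, 43.3, 41.6 and 39.99 normalized counts in control and 184, 167, 144, 124 and 84.6 in *Dis3* cKO (log2 fold change 1.79, standard error 0.27, adjusted p = 1.39e-09 from edgeR). Its lncRNA rose from 9.31 ± 4.51 to 65.8 ± 23.1 (SD, n = 5 each; log2 fold change 2.80, standard error 0.37, adjusted p = 0.00115 from edgeR), so both strands around this start rose. At *Gm9530* the PROMPT rose from 5.89 ± 4.55 to 23.8 ± 7.64 (log2 fold change 1.99) and the lncRNA from 35.2 ± 12.9 to 229 ± 94.9 (log2 fold change 2.70). *Gm19426* had a large rise of the PROMPT (log2 fold change 3.08) and a smaller one of the lncRNA (0.79, adjusted p = 0.0275). Its region lies within 10 kb past the 3′ end of *Ypel4* on the strand counted.

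The opposite direction occurred at *Ppp1r36dn* and *1700018B24Rik*. The *Ppp1r36dn* PROMPT (chr12:76441497-76444496) had 3.73, 8.50, 0, 0 and 9.30 in control and 43.4, 60.5, 31.6, 38.9 and 31.2 in *Dis3* cKO (log2 fold change 3.23, standard error 0.47, adjusted p = 8.01e-10 from edgeR), whereas its lncRNA fell from 86.4 ± 9.10 to 48.2 ± 8.96 (log2 fold change -0.84, standard error 0.19, adjusted p = 0.0170 from edgeR). For *1700018B24Rik* the PROMPT rose from 33.1 ± 7.06 to 75.4 ± 33.7 with overlap of the groups (log2 fold change 1.18, standard error 0.30, adjusted p = 0.00147 from edgeR), and the lncRNA fell from 428 ± 84.1 to 278 ± 42.3 (log2 fold change -0.62, adjusted p = 0.0247). This PROMPT call was lost under both PROMPT-based scalings, with log2 fold changes of 0.62 and 0.87, and within replicates 4 and 5 alone, with 0.70.

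*Gm14546* showed the reverse case, a raised lncRNA with no change detected in the PROMPT. The lncRNA had 2.80, 4.72, 6.78, 1.93 and 5.58 normalized counts in control and 282, 149.7, 125, 105 and 96.9 in *Dis3* cKO (log2 fold change 5.06, standard error 0.39, adjusted p = 1.04e-05 from edgeR). Its PROMPT (chr6:34287265-34290264) had 5.60, 2.83, 5.94, 4.84 and 1.86 in control and 14.5, 4.80, 0, 1.08 and 1.11 in *Dis3* cKO (log2 fold change 0.01, standard error 1.06, adjusted p = 0.998 from edgeR), with *Dis3* cKO replicate 1 above all others. *Snhg20* also had a raised lncRNA (log2 fold change 1.34, adjusted p = 0.00226 from edgeR) and a PROMPT that was not called, at 2.40 ± 2.91 and 6.74 ± 4.42. Unlike at *Gm14546*, the fitted change of this PROMPT was close to that of its lncRNA (log2 fold change 1.44, standard error 1.02, adjusted p = 0.497 from edgeR). The log2 ratio of PROMPT to lncRNA differed by 0.02 between the groups.

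The ratio of PROMPT to lncRNA within each library, in which library size cancels apart from the pseudocount of 0.5, was compared for the 35 named members with an lncRNA in the gene table. It rose in 11 and fell in 1 at an adjusted p under 0.05 over the 35. Where a library had 0 PROMPT counts, as in controls of *Mir17hg*, *Ppp1r36dn*, *Snhg15*, *Snhg5* and *Epb41l4aos*, the size of the ratio rests on the pseudocount. For *Malat1* the log2 ratio was -12.73 ± 0.82 in control and -10.09 ± 0.52 in *Dis3* cKO (SD, n = 5 each; exact permutation test, two-sided, p = 0.00794, adjusted p = 0.0309). The difference was 3.31 for *Snhg5*, 4.18 for *Mir17hg*, 1.56 for *Mir22hg*, 4.94 for *Ppp1r36dn*, 3.04 for *Gm13110*, 3.11 for *1700096K18Rik* and 2.16 for *Gm19426*, each with the same p, the smallest that 5 against 5 allow. *Snhg15*, *1700018B24Rik* and *Epb41l4aos* passed with differences of 2.95, 1.71 and 1.81 (exact permutation test, p = 0.0159, adjusted p = 0.0463). *Gm14546* was the one whose ratio fell, by 5.71 on the log2 scale. At *Gm28783* and *Gm43020* the PROMPT rose and the ratio did not pass (differences 0.41 and 0.36, adjusted p = 0.579 and 0.899 from the exact permutation test). Several of these members were named for their rise in the same PROMPT counts, and *Gm14546* was listed with earlier results known. For them the test is not independent of the choice. The number that passed was 7 without control replicate 5 or without *Dis3* cKO replicate 1, 2, 3 or 5.

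**Figure D4:**
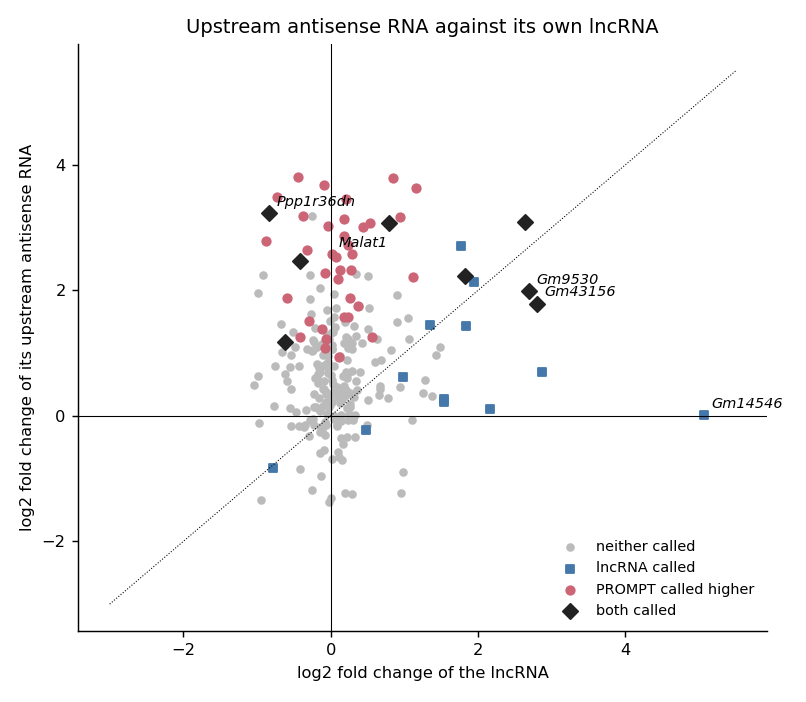
Log2 fold change of the PROMPT (vertical axis) against that of its lncRNA (horizontal axis) for the 252 members in which both were tested, with the dotted line where both are equal. Most of the 44 PROMPTs called higher that are drawn lie at an lncRNA change near 0 (median 0.16). The 34 called higher whose lncRNA was not tested are not drawn. *Gm14546* lies at 5.06 on the horizontal axis and 0.01 on the vertical.

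The share of members called higher was greater where the lncRNA was more counted. It was 2 of 1953 members with an lncRNA mean under 1 normalized count, 24 of 1740 at 1 to 10, 30 of 326 at 10 to 100, 13 of 70 at 100 to 1000 and 1 of 7 above. As percentages these are 0.102, 1.38, 9.20, 18.6 and 14.3. PROMPTs of well-counted lncRNAs were also more often tested, and among tested members the shares were 0.505%, 3.49%, 15.5%, 23.2% and 20%. The median log2 fold change in the class at 100 to 1000 was 1.07, beside 0.33 under 1. These classes are described and were not tested against each other.

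Distance to the nearest protein-coding gene start went with the share called in the same way, though less steeply. Up to 5 kb 6 of 141 members were called higher (4.26%), from 5 to 20 kb 20 of 636 (3.14%), from 20 to 100 kb 35 of 1581 (2.21%) and beyond 100 kb 17 of 2025 (0.840%). As shares of the tested members they were 8%, 7.41%, 6.26% and 3.12%. Members near coding genes also had more counts, with 53.2% tested up to 5 kb and 26.9% beyond 100 kb, and a median lncRNA count of 1.53 and 0.831. With only lncRNAs of at least 10 normalized counts, the shares were 13.04% (3 of 23), 13.5% (13 of 96), 11.1% (21 of 190) and 7.45% (7 of 94), and with lncRNAs under 10 they were 2.70% (3 of 111), 1.01% (5 of 496), 0.695% (9 of 1295) and 0.503% (9 of 1791). Across the 1449 tested members distance and log2 fold change had a Spearman's rho of -0.09. The median distance of the 78 was 38.7 kb, beside 60.3 kb for tested members and 87.1 kb for all.

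**Figure D5:**
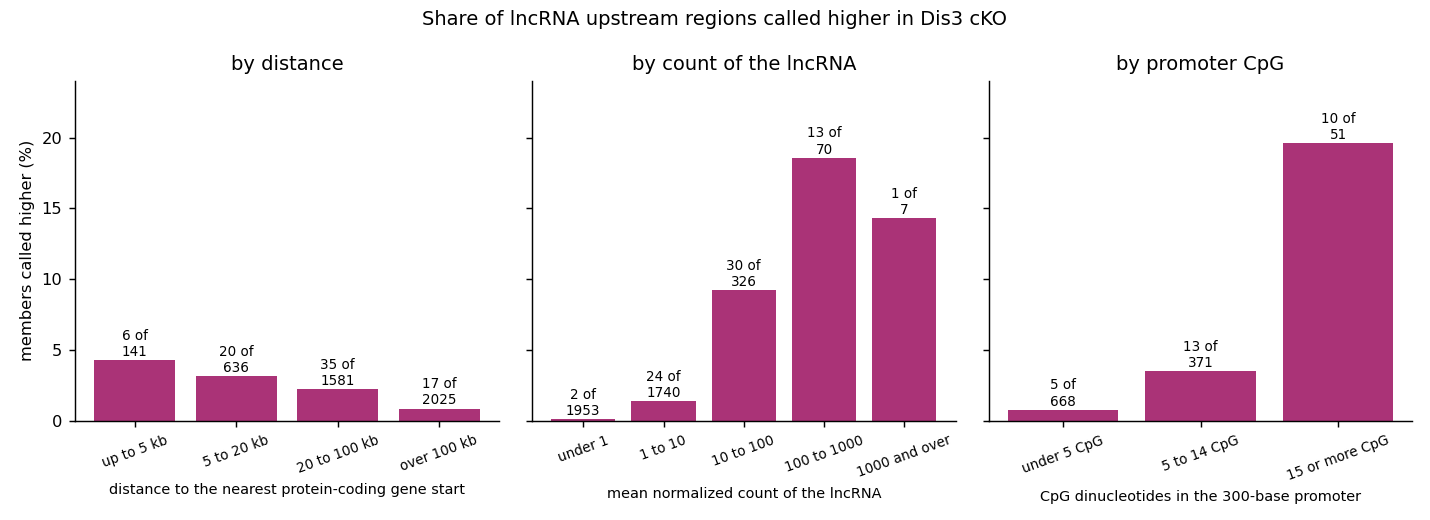
Share of members called higher (vertical axis, percent of all members in the class) by distance to the nearest protein-coding gene start, by the lncRNA's mean normalized count and by the number of CpG in the RefSeq promoter of matched members. The share falls from 4.26% to 0.840% with distance and reaches 18.6% for lncRNAs at 100 to 1000 counts and 19.6% for promoters with at least 15 CpG.

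The coding genes next to raised PROMPTs were then examined. The 78 have 77 different nearest coding genes, and for 68 of the 78 that gene was tested, with 5 called higher and none lower (median log2 fold change 0.00), beside 3.55% higher and 4.06% lower over all genes. The 5, named after their values were seen, are *Gpc5* near *Mir17hg*, *Arid1a* near *Gm12974*, *Dync1h1* near *B930059L03Rik*, *Fam222a* near *Gm13790* and *Sik1* near *Gm50000*, with log2 fold changes of 1.37, 0.58, 0.48, 0.41 and 0.32 (adjusted p from 0.00477 to 0.0499 in edgeR). The start of *Mir22hg* is 176 bases from that of *Tlcd2* on the same strand, the shortest distance among the 78, and the log2 fold change of *Tlcd2* was 0.06 (adjusted p = 0.809). *1700018B24Rik* is 1148 kb from *Pcdh18* (0.06, adjusted p = 0.813), both from edgeR. *Gdap1*, *Slc25a28*, *Cpeb2* and *Flt1*, the neighbors of *Gm28783*, *Gm34922*, *Gm43020* and *Gm43156*, had log2 fold changes of -0.09, 0.10, -0.01 and 0.23 and did not pass.

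The members were next split, without a test, by the side and strand of their nearest coding gene. Where its start lay on the upstream side on the same strand as the lncRNA, 23 of 912 members were called higher (2.52%), and on the downstream side on the same strand 24 of 1199 (2.002%). On the opposite strand the numbers were 19 of 1426 on the upstream side (1.33%) and 12 of 846 on the downstream side (1.42%). Over all members the share was 1.78%. A PROMPT that runs toward an opposite-strand neighbor upstream reads in the direction of that gene. Of such members within 5 kb 3 of 65 were called, beside 6 of all 141 within 5 kb. Members were also divided by whether a coding gene ends shortly before the region. Of 256 members within 10 kb past a coding gene's 3′ end on the counted strand 4 were called higher (1.56%), and without them 74 of 4127 (1.79%) were. Of the tested members these were 2.65% of 151 and 5.70% of 1298. Their control counts were the higher ones, with a median of 3.06 beside 1.84, and their median log2 fold change was the lower, 0.24 beside 0.47. Leaving out 194 members that overlap another PROMPT region left 71 of the 78.

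CpG dinucleotides, which are dense in the promoters of broadly active genes, were counted in the promoters of the members. RefSeq promoters with a start within 100 bases of the region's end were matched for 1090 members, 28 of them called higher. The median was 10 CpG per 300 bases in these 28, 4 in the 386 tested and not called, and 3 in the 676 not tested, and it is 7 over all 32851 RefSeq promoters. Of the members with at least 15 CpG 10 of 51 were called (19.6%), with 5 to 14 13 of 371 (3.50%) and with fewer 5 of 668 (0.749%). These promoters also had the more counted lncRNAs. Among lncRNAs of at least 10 normalized counts the median was 12 CpG in 19 called and 8 in 77 tested and not called. *Gm9530*, *Snhg5*, *1700096K18Rik*, *1700001L05Rik* and *Chaserr* are among the called members with 30 or more, and *Malat1* with 10 and *Gm12108* with 1 show that a low number did not preclude a call. The letters CCAAT, on either strand, were in 15 of the 28 (53.6%), in 40.2% of the tested and not called, and in 37.4% of all promoters, and TATAAA in 5 (17.9%), 16.8% and 13.6%. These are counts of letters in the window, and the sets were not tested against each other.

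Genes of the machinery that degrades PROMPTs were listed to see what else moved in the same libraries. Of 13 tested genes of the exosome core and its nucleases *Dis3*, *Exosc8* (log2 fold change -0.35, adjusted p = 0.00964), a core subunit, and *C1d* (-0.44, adjusted p = 0.0270), a cofactor of the nuclear exosome, were called lower and none higher in edgeR, beside 4.06% of all genes lower and 3.55% higher. *Exosc10*, the other nuclear nuclease, had -0.08 (adjusted p = 0.529). Of 9 nuclear adaptors *Rbm7*, the RNA-binding subunit of the NEXT complex, was lower (-0.39, adjusted p = 0.0191) and *Zfc3h1*, of the PAXT connection, higher (0.30, adjusted p = 0.00960). Of 11 genes of the cap-binding complex and of early termination *Ints11*, the Integrator endonuclease, was lower (-0.29, adjusted p = 0.0471). The values are of whole testes, so the cells in which these genes changed cannot be told apart.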

How the data were processed

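RNA was prepared from the pooled testes of 1 mouse per library. Libraries were stranded and ribosomal RNA was depleted. Read trimming with cutadapt, alignment with HISAT2 and counting with featureCounts were done by the authors, per the methods and the submitters' notes. The deposited tables hold the authors' raw counts, of sense reads per gene and of antisense reads per PROMPT region, with featureCounts 1.6.4 and GENCODE M18 in the file headers. The notes name GRCm38.p5, whose positions are printed here, whereas the methods name a later build and release. The PROMPT table holds genes that the gene table does not (287 of the members, 271 of them on chromosomes 17, 18 and 19), and for 4063 members the region ends at the gene start of the gene table. Symbols and biotypes were matched by ID to GENCODE M39, which gave a biotype for 28745 of 30166 PROMPT rows and 50129 of 54232 genes. Both tables were used whole, without the authors' comparisons.

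Tests used R 4.3.3, edgeR 4.0.16 and, as an alternative, DESeq2 1.42.0. PROMPT regions averaging 3 or more counts over the libraries were fitted by edgeR's quasi-likelihood test, scaled by the gene table's library sizes and TMM factors, and genes after filterByExpr (min.count of 10, min.total.count of 15). P-values were two-sided and adjusted by Benjamini-Hochberg over all rows tested. The common biological coefficient of variation was 0.686 for PROMPTs and 0.173 for genes. Every pair of libraries within a group differed by more than sampling noise (chi-square over its degrees of freedom at least 4.36). The log2 ratio of PROMPT to lncRNA used a pseudocount of 0.5. Distances run from the base after the region to the nearest start of a protein-coding gene in the gene table. RefSeq promoters (GRCm38.p6) were matched by symbol, chromosome, strand and a start within 100 bases. The procedure was tested on simulated data.

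The members, gene lists and tests were chosen with earlier results of these data known. Members named are the 10 largest rises and up to 5 largest falls that averaged 20 or more normalized counts and whose groups were separate, the 5 most counted in control, up to 5 with both RNAs called, and the tested members of a list of 60 lncRNA genes. Most of the 60 are well known, and others, such as *Gm14546*, are not. *Chaserr*, *1700001L05Rik*, *Gm12108* and the members in the last section's further observations were named after their values were seen. Alternatives were other scalings and filters, DESeq2, terms for the replicate number or the cluster of libraries, each cluster alone, each library left out, and members left out by position.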

Additional observations from a re-analysis of the deposited data

Results flagged for a closer look

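Of 90 groups of 5 libraries examined for a library far from the others, 6 held one, near the 1 in 20 that chance gives. *Dis3* cKO replicate 1 was the library in 4 of them. It had 74.7 normalized PROMPT counts at *Gm36423* (others 45.7 to 51.9), 20.5 at *Firre* (others 2.88 to 7.80) and 16.9 at *Ftx* (others 4.45 to 7.89). Its summed counts over regions at protein-coding genes were 6213 CPM relative to its gene counts (others 4058 to 4444). Control replicate 4 had 10.6 at *Gm13110* (others 3.73 to 4.65), and control replicate 5 had 7.44 at *Snhg20* (others 0 to 1.89). None of these 5 members' calls rested on the library named, since *Gm13110* kept its call without control replicate 4 and the others were not called with or without it.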

How the results depend on the processing

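The number of members called higher stayed within 1.5 times of 78 under 20 of 22 alternatives. The exceptions were 41 with the scaling of the PROMPT counts and 22 within replicates 4 and 5 alone, which hold fewer libraries. Of the 78, 75 were also called by DESeq2, 60 within replicates 1 to 3, 53 when scaled by the pseudogene regions, and 58 to 75 with one library left out, when 60 to 87 members were called. The number called lower was 3 with the scaling of the PROMPT counts, 2 within replicates 1 to 3, and 0 in DESeq2, at a mean of at least 10 counts (177 members tested), with the replicate block and within replicates 4 and 5, and ranged from 0 to 1 with one library left out. The median was -0.064 with the scaling of the PROMPT counts and 1.05 within replicates 4 and 5, and 0.26 to 0.61 with one library left out. Raised lncRNA genes ranged from 11 to 21 and lowered ones from 2 to 6 with one library left out, and the lowered ones were 1 within replicates 1 to 3 and 18 within replicates 4 and 5. By distance, DESeq2 called 10 members within 5 kb, and with one library left out the ranges were 13 to 22 at 5 to 20 kb and 11 to 19 beyond 100 kb. Members with a changed ratio ranged from 7 to 12. Low counts (a median over all members of 2.20 per library) limit all of these.

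The replicate number pairs no samples by the labels. Same-numbered libraries correlated across genes at 0.08 to 0.18, and 6 of 10 libraries correlated best with their own number. With the replicate block 67 members were called higher, all among the 78, and 21 and 7 lncRNA genes higher and lower.

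Some named members that were not called changed direction under an alternative, and the cause was not tested. With the scaling of the PROMPT counts the log2 fold changes were -0.51 for *Gm48444*, -0.35 for *Gm11205*, -0.021 for *Norad*, -0.32 for *Jpx* and -0.65 for *Gm14546*. Scaled by the pseudogene regions they were -0.34 for *Gm48444*, -0.081 for *Gm11205*, -0.0020 for *Jpx* and -0.48 for *Gm14546*. Within replicates 4 and 5 they were -0.044 for *Gm48444*, 0.0085 for *Gm5493*, 0.064 for *Gm36423*, -0.30 for *Snhg20*, -0.53 for *Norad*, -0.51 for *Jpx*, 1.20 for *Mir100hg* and 0.81 for *Lncenc1*. Within replicates 1 to 3 they were 0.043 for *Gm49390*, -0.069 for *Snhg17* and 0.059 for *Mir99ahg*. For *Gm14546* the replicate block gave -0.65 and the cluster term -0.23. With one library left out the ranges were -0.11 to 0.020 for *Gm49390*, -0.10 to 0.26 for *Gm48444*, -0.16 to 0.015 for *Gm5493*, -0.035 to 0.38 for *Jpx*, -0.55 to 0.18 for *Mir100hg*, -0.69 to 0.36 for *Mir99ahg*, -0.43 to 0.16 for *Lncenc1* and -1.18 to 0.32 for *Gm14546*. None of the named members that were called changed direction.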

Other observations

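Further members called higher were named after their values were seen. *Chaserr* is an lncRNA gene upstream of *Chd2*, 16.6 kb away on the same strand, and its PROMPT had 47.6, 31.2, 25.4, 19.3 and 13.02 normalized counts in control replicates 1 to 5 and 92.7, 53.8, 69.9, 28.1 and 46.8 in *Dis3* cKO (log2 fold change 1.09, standard error 0.33, adjusted p = 0.00956 from edgeR). The groups overlapped. The PROMPT of *Mir142hg*, host of miR-142, a microRNA of blood cells, had 5.60, 3.78, 3.39, 2.90 and 2.79 in control and 26.5, 17.3, 23.7, 9.73 and 12.2 in *Dis3* cKO (log2 fold change 2.24, standard error 0.64, adjusted p = 0.00569 from edgeR), and its lncRNA was higher as well (log2 fold change 1.82, adjusted p = 0.0220). Summed macrophage markers ranged from 61.2 to 64.9 CPM in control and from 57.3 to 77.2 in *Dis3* cKO, with 0 of 4 called, and their part in this result was not tested. At *Platr27* the PROMPT rose from 3.50 ± 2.66 to 29.2 ± 10.2 (SD, n = 5 each; log2 fold change 3.01, standard error 0.54, adjusted p = 1.20e-06 from edgeR), with an lncRNA log2 fold change of 0.44 that did not pass. *Zim2*, an imprinted gene annotated here as an lncRNA, had 5.60, 0, 0.848, 0 and 0.930 PROMPT counts in control and 39.7, 12.5, 16.9, 14.1 and 6.68 in *Dis3* cKO, without overlap (log2 fold change 3.49, standard error 0.75, adjusted p = 7.34e-05 from edgeR). *Gm11613* and *2310026L22Rik* rose least among the members called, with log2 fold changes of 0.94 and 0.996 on control means of 46.03 and 25.8.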
